A study of Homo sapiens with 4 samples.

Results

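The Eph receptors and their ephrin ligands are represented here by 10 genes, chosen by name from the 37810 gene names of the deposited expression table. They are 5 ephrin genes (EFNA1, EFNA4, EFNA5, EFNB1 and EFNB2) and 5 receptor genes (EPHA1, EPHA2, EPHB2, EPHB3 and EPHB4), and all 10 were found. They were picked with their intensities and differences on these same arrays in view, so those values are described and carry no test. RNA came from MCF10A, an immortalized breast epithelial line that forms no tumours, and from MDA-MB-231, a line of metastatic breast cancer cells. Each line was transfected with either control siRNA or siRNA against the forkhead transcription factor FOXF2, at 20 nM, and the labels give 48 h for every sample. Each of the 4 combinations was measured on 1 Illumina array, so no value below has a spread between replicate cultures, and precision is limited by the small number of arrays.

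Eph receptors are the largest family of receptor tyrosine kinases, and their ligands are themselves tethered to cell membranes, so that signalling takes place where cells touch. Ephrin-A ligands hang on the membrane by a lipid (GPI) anchor and mainly bind EphA receptors, whereas ephrin-B ligands cross the membrane, mainly bind EphB receptors and can signal backwards into the cell that carries them. In epithelia the system is known for adhesion, repulsion and the sorting of cells into compartments. In breast cancer cells EphA2 is known for activity without its ligand, which favours migration, while binding of ephrin-A1 activates its kinase and leads to its removal from the surface.

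Values are the authors' linear intensities, in arbitrary units. Differences are log2 values after subtraction of an estimated background and addition of 16, and they therefore exceed the ratio of the deposited intensities, most of all for dim genes. An intensity counted as above background where it passed the upper 1% of that array's estimated background, which lay between 121 and 122. Of the 37810 names, 54.9% were above background on at least 1 array and 26.3% on all 4. FOXF2 itself went from 241 with control siRNA to 143 with its own siRNA in MCF10A, and from 259 to 123 in MDA-MB-231, so it was the lower one of each pair. Of 7 basal mammary epithelial markers, KRT5, KRT14, KRT17, KRT6A, TP63 and CDH1 were above background on both MCF10A arrays and on no MDA-MB-231 array, while ITGB4 was above it on all 4. The mesenchymal marker VIM was above background everywhere and ZEB1 only on the MDA-MB-231 arrays. Of 12 markers of blood, endothelial, fibroblast and nervous cells, PTPRC, CD3E, CDH5, VWF and COL1A2 were at background throughout, and CD68, PECAM1 and MBP were above it on all 4 arrays. COL1A1, PDGFRA, GFAP and RBFOX3 were above it on 1 to 3 arrays each. The summed intensity of these 12 was 1906 and 1873 in MCF10A and 2706 and 2910 in MDA-MB-231 (control and FOXF2 siRNA in each), and its part in the differences between the lines was not tested.

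Of the 10 genes, 7 were above background on all 4 arrays. EPHB2 was above it on 3 arrays, and EFNA5 and EPHA1 on 2 each. Because the probes of different genes differ in brightness, each gene is compared only with itself across the arrays.

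**Figure D1:**
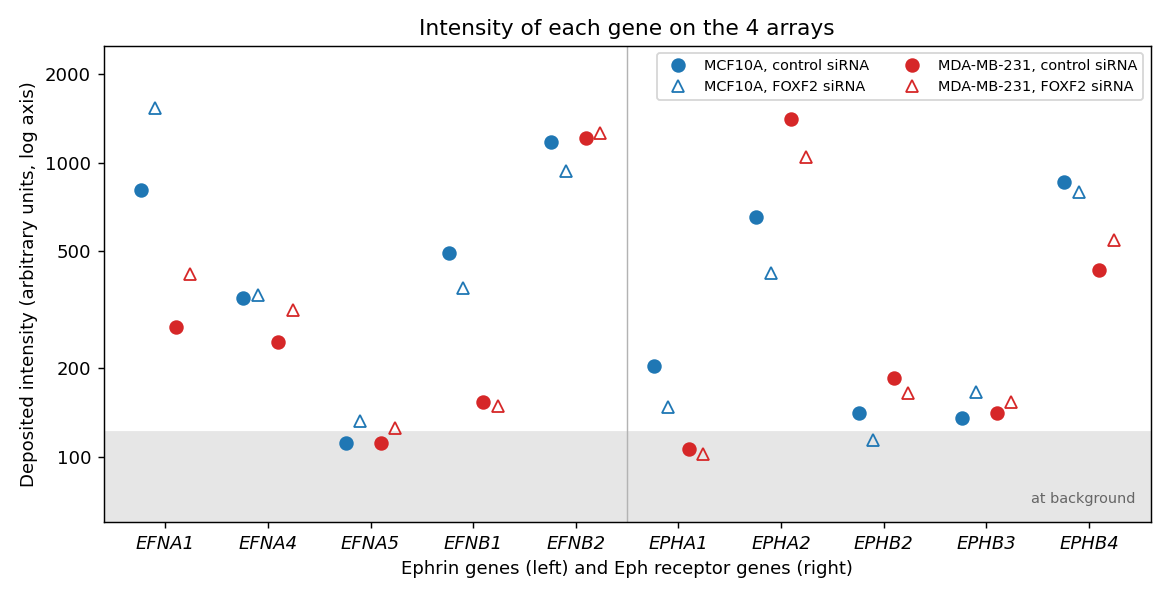
Deposited intensity (log axis) of the 10 genes on each of the 4 arrays, 1 point per array, with MCF10A in blue, MDA-MB-231 in red, control siRNA as filled circles and FOXF2 siRNA as open triangles. The grey band marks intensities at background. EFNA1 and EFNB1 are higher in MCF10A and EPHA2 higher in MDA-MB-231, and within each line the EFNA1 triangle lies above its circle and the EPHA2 triangle below it.

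EFNA1 encodes ephrin-A1, the main ligand of EphA2. In MCF10A its intensity was 809 after control siRNA and 1539 after FOXF2 siRNA, while MDA-MB-231 had 277 and 418. In these bulk extracts, fewer cells that express a gene and less RNA per cell cannot be told apart. Both MCF10A arrays were thus above both MDA-MB-231 arrays, and within each line the FOXF2 siRNA array was the higher one. The log2 difference with FOXF2 siRNA was 1.01 in MCF10A, a 2.01-fold higher level, and 0.79 in MDA-MB-231, 1.73-fold higher. For scale, the 1000 genes nearest to EFNA1 in brightness had a robust SD of log2 differences of 0.28 (MCF10A) and 0.38 (MDA-MB-231). Ranked from the highest, the difference of EFNA1 was number 167 of 11316 genes above background on both MCF10A arrays and number 310 of 11398 in MDA-MB-231.

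EPHA2 encodes the EphA2 receptor. MCF10A had an intensity of 653 after control siRNA and 421 after FOXF2 siRNA, and MDA-MB-231 had 1409 and 1049. Here both MDA-MB-231 arrays were above both MCF10A arrays, and in each line the FOXF2 siRNA array was the lower one. The log2 difference with FOXF2 siRNA was -0.76 in MCF10A (1.69-fold lower, against a robust SD of 0.33 for genes of like brightness) and -0.46 in MDA-MB-231 (1.37-fold lower, against 0.30). EPHA2 was number 318 from the lowest in MCF10A and number 1217 from the lowest in MDA-MB-231. On these arrays ligand and receptor were therefore opposed between the lines, and between the siRNAs within each line. Both genes were picked with these values in view, EPHA2 in MDA-MB-231 was short of 1.5-fold, and the opposition was not tested.

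The stretch in front of EFNA1 and EPHA2 is shown because they are the ligand and receptor described above, although EFNA4, EFNB1 and EPHB3 also had the same sign in each line. It is the 250 bases before the RefSeq start (GRCh38.p14), at chr1:155127626-155127875 on the + strand for EFNA1 and chr1:16156070-16156319 on the - strand for EPHA2. Capitals mark GC boxes, the letters GGGCGG or their reverse complement CCGCCC, which Sp1-family factors are known to bind.
EFNA1: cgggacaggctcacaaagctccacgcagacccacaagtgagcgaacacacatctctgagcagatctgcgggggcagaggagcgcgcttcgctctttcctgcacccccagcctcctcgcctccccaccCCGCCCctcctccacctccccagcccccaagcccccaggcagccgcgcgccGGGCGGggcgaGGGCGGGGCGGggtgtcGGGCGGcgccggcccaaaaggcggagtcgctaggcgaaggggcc
EPHA2: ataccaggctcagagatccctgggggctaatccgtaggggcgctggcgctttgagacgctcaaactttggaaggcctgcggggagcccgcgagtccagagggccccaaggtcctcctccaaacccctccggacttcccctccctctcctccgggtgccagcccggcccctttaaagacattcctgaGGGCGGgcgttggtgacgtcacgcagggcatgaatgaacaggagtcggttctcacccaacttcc
The EFNA1 stretch held 5 GC boxes, of which a pair shares 1 base, and the EPHA2 stretch held 1. Over the 300 bases that the promoter table gives for each gene, none of the 10 genes contained the forkhead motifs GTAAACA or ATAAACA on either strand. In all, 3.41% and 4.33% of 27305 promoters of that length held these motifs, and their absence from these windows says nothing about binding of FOXF2. Further motifs were looked up with the sequences in view. GGGCGG was in the windows of 10 of 10 genes, against 44.6% of all promoters and 58.5% of the 15843 of protein-coding genes. The shorter TAAACA, which lies inside both forkhead motifs, the E-box CACGTG and the AP-1 motif TGACTCA were each in 0 of 10 windows, against 12.4%, 7.43% and 4.92% of all promoters. Among promoters of protein-coding genes the shares were 8.95%, 8.88% and 3.66%, in that order. The windows had a GC content of 58.3% to 83.0% (median 70.3%, against 62.7% for protein-coding genes), and from 18 CpG dinucleotides at EFNB1 to 49 at EFNB2 and EPHB2.

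The other ephrin-A genes differed less. EFNA4 encodes ephrin-A4, a GPI-anchored ligand of several EphA receptors. The intensities, control siRNA first, were 347 and 357 in MCF10A and 245 and 316 in MDA-MB-231. EFNA4 was higher on the MCF10A arrays. The log2 difference (MDA-MB-231 minus MCF10A) was -0.71 on the control siRNA arrays and -0.24 on the FOXF2 siRNA arrays. With FOXF2 siRNA the log2 difference of EFNA4 was 0.05 for MCF10A but 0.53 for MDA-MB-231, the latter 1.44-fold and short of 1.5-fold. EFNA5, best known for ephrin-A5's part in the guidance of retinal axons, had 112 and 133 in MCF10A and 111 and 126 in MDA-MB-231, in the same order. It was above background on the FOXF2 siRNA array of each line and on neither control array. Its level was at least 1.31-fold higher with FOXF2 siRNA in MCF10A and at least 1.12-fold higher in MDA-MB-231, both of them lower bounds, because the control arrays gave no measurable level.

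EFNA1, EFNA4 and EFNA3 lie side by side on chromosome 1 in RefSeq (GRCh38.p14). EFNA4 spans 155063740 to 155069553, EFNA3 begins 9.28 kb beyond it, and EFNA1 (155127876 to 155134899) begins 40.3 kb beyond the end of EFNA3. EFNA3, an ephrin-A gene outside the 10, was at background on all 4 arrays, with intensities of 101, 118, 109 and 104. Within this cluster the 1.5-fold difference in each line was thus seen at EFNA1, while EFNA4 differed by less than that in each line and EFNA3 was not measurable. RefSeq also lists a read-through gene EFNA4-EFNA3, and whether its transcripts contribute to the EFNA4 signal was not tested.

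Among the transmembrane ligands, EFNB1 encodes ephrin-B1, known from the sorting of cells at tissue boundaries. Its intensities, again control siRNA first, were 496 and 376 in MCF10A against 154 and 149 in MDA-MB-231. Both MCF10A values were well above both MDA-MB-231 values. With FOXF2 siRNA the log2 difference was -0.50 in MCF10A, 1.42-fold lower, and -0.11 in MDA-MB-231, where genes this dim had a robust SD of 0.52. EFNB2 encodes ephrin-B2, the partner of EphB4, best known for marking arteries. Its intensity was 1181 and 938 in MCF10A and 1212 and 1261 in MDA-MB-231. The 4 values lay close together. The FOXF2 siRNA differences had opposite signs, -0.36 in MCF10A and 0.06 in MDA-MB-231.

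The EphB receptor genes showed 3 different patterns. EPHB4, encoding the receptor of ephrin-B2, had intensities of 862 (control siRNA) and 795 (FOXF2 siRNA) in MCF10A against 432 and 546 in MDA-MB-231. Both MCF10A arrays were higher, and the siRNA differences had opposite signs, -0.13 in MCF10A but 0.41 in MDA-MB-231. EPHB2, known from cell positioning in the intestinal crypt, had intensities of 141 and 114 in MCF10A and of 185 and 166 in MDA-MB-231. It was dim everywhere and at background on the MCF10A FOXF2 siRNA array, where it was at least 1.53-fold lower than with control siRNA. In MDA-MB-231 its difference was -0.32, below the robust SD of 0.47 for genes of like brightness. EPHB3, a receptor close to EphB2 in the crypt system, had intensities of 136 and 167 in MCF10A and of 142 and 153 in MDA-MB-231. The arrays of the lines overlapped, and the FOXF2 siRNA array was higher in each line, by 0.69 (1.61-fold) in MCF10A and 0.27 in MDA-MB-231, against robust SDs of 0.53 and 0.56.

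EPHA1 encodes the first Eph receptor to be described, found in epithelia such as skin. MCF10A had intensities of 204 (control siRNA) and 148 (FOXF2 siRNA), and MDA-MB-231 had 106 and 103. It was above background on both MCF10A arrays and on no MDA-MB-231 array. In MCF10A its log2 difference with FOXF2 siRNA was -0.93 (1.90-fold lower, against a robust SD of 0.48), number 138 from the lowest of 11316 genes.

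Counted together, 2 of the 10 genes were at least 1.5-fold higher with FOXF2 siRNA in MCF10A (EFNA1 and EPHB3), against 8.04% of the 16543 genes above background on either array. The 3 at least 1.5-fold lower (EPHA1, EPHA2 and EPHB2) stand beside 6.82% of all genes, and all 5 beside 14.9%. In MDA-MB-231, EFNA1 was 1.5-fold higher, against 7.30% of 16793 genes, and 0 of the 10 were 1.5-fold lower, against 7.46% (14.8% in either direction). Without background correction, EFNA1 and EPHA2 were the 2 genes past 1.5-fold in MCF10A. At 2-fold, EFNA1 in MCF10A remained (1.70% of genes were that much higher there and 1.14% that much lower), though just short of it without background correction (0.93), with an offset of 50 (0.97) and with quantile normalization within each line (0.99), and 0 of the 10 did so in MDA-MB-231, against 1.20% higher and 1.38% lower. As these contrasts served to pick the genes, nothing is read from the shares. Of the 7 genes above background on all 4 arrays, 5 had the same sign in each line (53.0% of 9962 such genes did), and EFNB2 and EPHB4 did not. EFNA1 was the one at least 1.5-fold higher in each line, as were 0.793% of those 9962 genes, and 0 of the 7 were 1.5-fold lower in each line (0.823%).

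**Figure D2:**
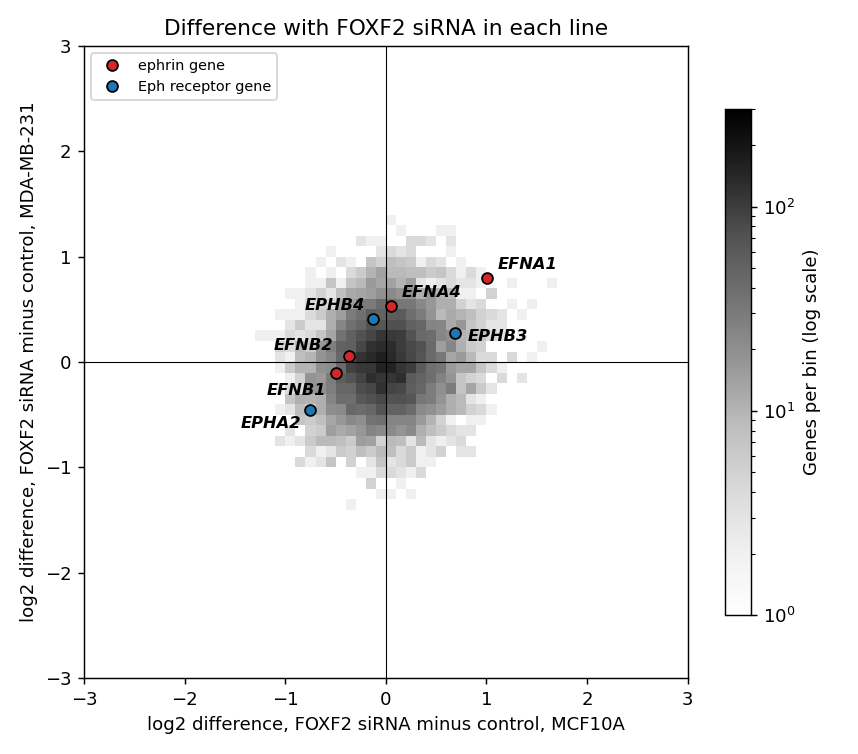
The log2 difference between FOXF2 siRNA and control siRNA in MCF10A (horizontal) and MDA-MB-231 (vertical) for the 7 genes above background on all 4 arrays, with ephrin genes in red and receptor genes in blue, over the 9962 genes of the same kind as grey bins (darker means more genes). EFNA1 lies at the upper right edge of the cloud (1.01 and 0.79). EPHA2 lies inside the cloud, in its lower left part (-0.76 and -0.46), and the other 5 also lie inside it.

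To compare the lines, each gene was averaged over its control and FOXF2 siRNA arrays. EFNA1 and EFNB1 had log2 differences (MDA-MB-231 minus MCF10A) of -2.03 and -2.41, that is, they were 4.07-fold and 5.30-fold higher in MCF10A. EPHA1 was at least 2.43-fold higher in MCF10A, a bound because its MDA-MB-231 arrays were at background (mean log2 of 6.41 against a measured 4.54). Its 2-fold call was lost with an offset of 50 and without background correction, where its measured log2 difference was -0.74 and that of EFNB1 was -1.51. EPHA2 was 2.59-fold higher in MDA-MB-231, a log2 difference of 1.37. EPHB2 was at least 2.03-fold higher there, with the MCF10A array at background set to that array's lowest signal above it, and under 2-fold without background correction (0.47). EPHB4 and EFNA4 differed by -0.89 and -0.48, and EFNB2 by 0.25. EPHB3 and EFNA5 differed by -0.05 and -0.12, and for these 2 genes the arrays of the lines overlapped.

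The line difference can be read from separate pairs of arrays, those with control siRNA and those with FOXF2 siRNA. In that order it was -1.92 and -2.13 for EFNA1, -2.60 and -2.21 for EFNB1, and 1.22 and 1.52 for EPHA2, so the sign of these 3 genes was the same in each pair, and each was past 2-fold in both. For EPHB4 it was -1.17 and -0.62. For EPHB2 it was 0.88 on the control arrays, under 2-fold, and at least 1.17 on the FOXF2 siRNA arrays, where MCF10A was at background. In all, 2 of the 10 genes were at least 2-fold higher in MDA-MB-231, against 5.51% of 20747 genes above background on any array, and 3 were 2-fold lower, against 5.69% (11.2% in either direction). The arrays of the lines did not overlap for 8 genes, 3 higher and 5 lower in MDA-MB-231, against 27.9% and 24.8% of all genes and 52.6% in either direction. Again the genes were picked with these values known.

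**Figure D3:**
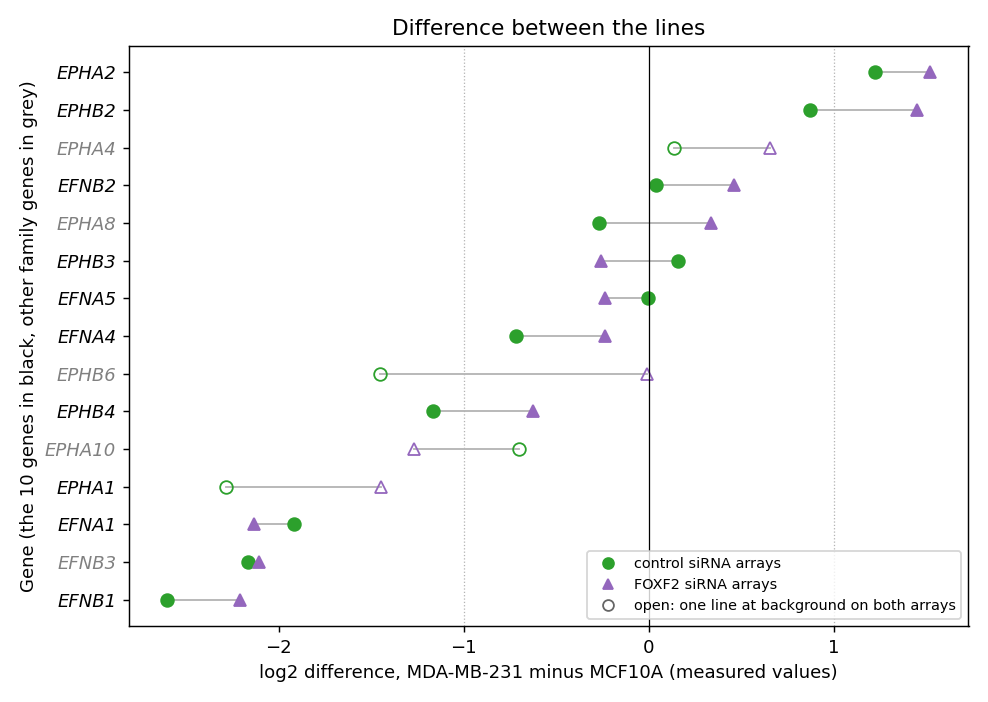
Measured log2 difference between MDA-MB-231 and MCF10A for the 10 genes (black names) and the 5 other family genes above background on at least 1 array (grey names), from the control siRNA arrays (green circles) and the FOXF2 siRNA arrays (purple triangles); dotted lines mark 2-fold and open symbols a line at background on both arrays. EFNA1, EFNB1 and EFNB3 lie near or beyond -2 in both pairs of arrays, and EPHA2 lies beyond 1 in both. The EPHB2 triangle is a measured value whose MCF10A array was at background. So is the EFNB3 circle, whose MDA-MB-231 array was at background.

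The table holds 12 further Eph and ephrin genes, 22 in all. EFNA2, EFNA3, EPHA3, EPHA5, EPHA6, EPHA7 and EPHB1 were at background on every array, with intensities of 88.6 to 118. EPHA4, EPHA8, EPHA10 and EPHB6 were above background on 1 or 2 arrays each. EPHB6, a receptor without kinase activity, had an intensity of 148 after control siRNA and 100 after FOXF2 siRNA in MCF10A, with 102 and 99.6 in MDA-MB-231. Of its 4 arrays, MCF10A with control siRNA was the one above background, and EPHB6 was at least 1.75-fold lower there with FOXF2 siRNA. EPHA10, another receptor without kinase activity, had 129, 142, 109 and 104 in that order and was above background on both MCF10A arrays. EFNB3, encoding the third ephrin-B ligand, had intensities of 225, 264, 116 and 128. It was above background on both MCF10A arrays and barely on 1 MDA-MB-231 array. In limma, fitted over 20747 genes with line and siRNA as terms and 1 residual degree of freedom, EFNB3 was lower in MDA-MB-231 by a log2 difference of -2.14 (SE 0.34, adjusted p = 9.46e-09), lower in 2 of 2 pairs of arrays. The size of this difference depends on the background estimate, because both MDA-MB-231 intensities lie near the background limit. The deposited intensities of EFNB3 differ by less. EFNB3 was the 1 gene past the test (adjusted p under 0.05, with at least 1 on the log2 scale in size) among the 5 tested of these 12, and 5.95% of all genes were called lower in this way. Without background correction, 1 of the 5 was also called lower. With FOXF2 siRNA, 0 of the 5 passed limma (adjusted p of 0.961 or more), and 0 had an unadjusted p under 0.05. In this fit the 1 residual degree of freedom is how far the siRNA difference differs between the lines. The spread came entirely from the trend of that quantity over genes of like brightness. Its p-values therefore rest on neither the spread of the named gene nor a spread between cultures.

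The genes that carry the signal inside the cell were described through 4 lists of 60 genes, of which 54 were above background on at least 1 array and were tested. Between the lines, 2 were higher and 6 lower in MDA-MB-231 in limma, against 5.75% and 5.95% of all genes. Without background correction 0 were called higher and 3 lower. NGEF and FYN then lost their call. So did VAV3, GRB7 and PTPN13, whose deposited intensities are less than 2-fold apart in each pair of arrays. The adjusted p-values given below for single genes belong to limma on the measured values, not to the bounds printed beside some of them. The median log2 difference of the 54 was 0.00, beside 0.03 for all genes tested.

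The list of forward GTPase signalling holds guanine nucleotide exchange factors and small GTPases, which turn Eph signals into changes of the actin skeleton. It also holds GTPase-activating proteins, the kinases ROCK1 and ROCK2, and ELMO2. In this list, 1 of 16 tested genes was higher and 1 lower in MDA-MB-231. NGEF, the ephexin that EphA receptors use to act on RhoA, had intensities of 115 and 111 in MCF10A and of 207 and 181 in MDA-MB-231. It was at background in MCF10A and at least 3.05-fold higher in MDA-MB-231 (adjusted p = 1.11e-05). VAV3, a Rac exchange factor that binds activated Eph receptors, went the other way, with intensities of 161 and 177 in MCF10A and of 101 and 117, at background, in MDA-MB-231. It was at least 2.34-fold higher in MCF10A (adjusted p = 0.00124).

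Of the 20 adaptors and kinases, 1 was higher and 4 were lower in MDA-MB-231. FYN, a Src-family kinase that acts below ephrin-A and ephrin-B ligands, had intensities of 117 and 120 in MCF10A, at background, and of 180 and 190 in MDA-MB-231 (at least 2.80-fold higher, adjusted p = 3.44e-04). PIK3R1, the regulatory subunit of PI3-kinase, had intensities of 420 and 448 in MCF10A and of 177 and 158 in MDA-MB-231. Its log2 difference in limma was -2.11 (SE 0.27, adjusted p = 1.19e-13). The adaptor genes GRB7 and SHC1 were lower by 1.61 and 1.38 (adjusted p = 5.62e-04 and 3.98e-12), GRB7 being above background on 1 MDA-MB-231 array. The fourth, named because it completes the count, was NCK2, whose protein binds phosphorylated ephrin-B tails, with a log2 difference of -1.31 (adjusted p = 2.60e-07).

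Of 11 phosphatases and proteases, PTPN13, a phosphatase that is recruited to ephrin-B ligands and ends their phosphorylation, was lower in MDA-MB-231. Its intensities were 269 and 242 in MCF10A and 159 and 129 in MDA-MB-231, with a log2 difference of -1.58 (SE 0.31, adjusted p = 5.54e-06). ADAM10, MMP14 and the gamma-secretase genes, whose products cut Eph receptors and ephrins at the membrane, did not pass. Of these, PSENEN was higher by 0.70 (adjusted p = 0.0315 in limma) and failed on size alone. Of the 7 tested genes of ephrin-B reverse signalling, 0 passed in either direction, and 0 had an unadjusted p under 0.05 with a log2 difference of 1 or more. STAT3 in that list failed on size alone, with a log2 difference of -0.66 (adjusted p = 0.0131 in limma).

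**Figure D4:**
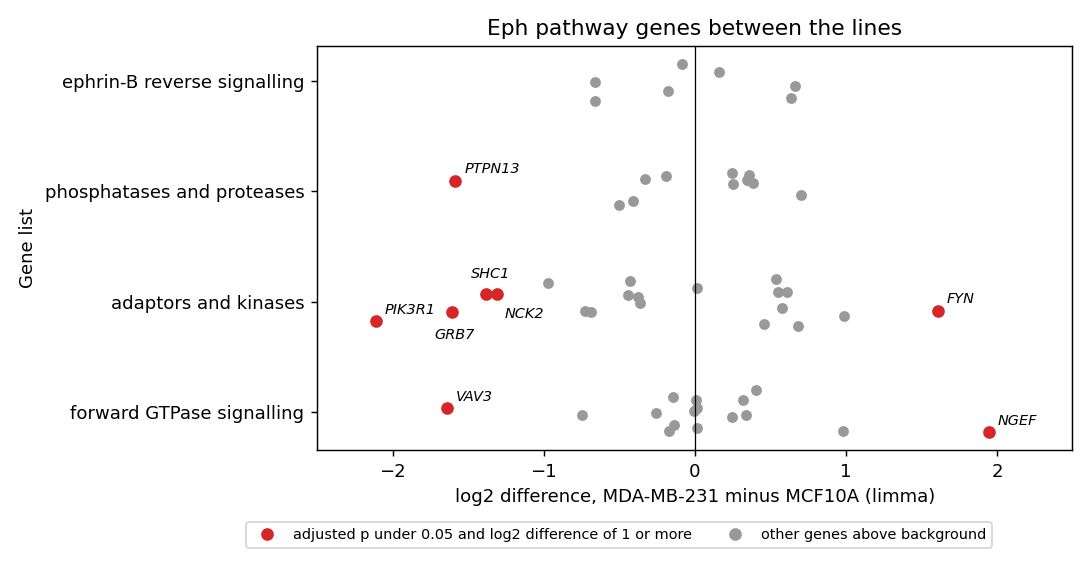
The log2 difference between MDA-MB-231 and MCF10A in limma for the 54 tested genes of the 4 lists, 1 point per gene, with vertical scatter inside a list for legibility. Red points with names are the 8 genes with an adjusted p under 0.05 and a difference of 1 or more, of which NGEF and FYN are higher in MDA-MB-231 and 6 are lower.

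With FOXF2 siRNA, averaged over the lines, 0 of the 54 genes passed limma in either direction, and 2 had an unadjusted p under 0.05. Over all 20747 genes, 27 rose (0.13%) and 18 fell (0.0868%). The lowest adjusted p among the 54 was 0.733, for SHC1. The median log2 difference of the genes above background on both arrays was 0.08 in MCF10A (47 genes) and -0.03 in MDA-MB-231 (48 genes), beside 0.00 over all such genes in each line. In MCF10A, 4 of the 54 genes were at least 1.5-fold higher and 1 lower, beside 8.04% and 6.82% of all genes above background there. In MDA-MB-231, 2 were higher and 4 lower, beside 7.30% and 7.46%. One of the 4 higher in MCF10A was ARHGEF15, an exchange factor of the ephexin family named here after its values were seen. Its MCF10A intensity was 96.2 after control siRNA, at background, and 158 after FOXF2 siRNA (at least 2.04-fold higher). Among genes above background on both arrays, those furthest from 0 in MCF10A were INPPL1 (0.72), the lipid phosphatase that is recruited to EphA2, and the proteinase gene MMP14 (-0.70). In MDA-MB-231 they were the adaptor GRB10 (-0.99) and the polarity gene PARD6A (0.84). Next in each list were ITSN1 (0.46) and ROCK1 (-0.32), GRB7 (0.68), PSENEN (0.26), and GIT1 (-0.55) and STAT3 (0.44) in MCF10A. In MDA-MB-231 they were ITSN1 (-0.65) and VAV2 (-0.58), NCK1 (-0.39), PTPN13 (-0.77) and PSENEN (0.64), and PICK1 (-0.30). ITSN1, a Cdc42 exchange factor activated by EphB2, thus had differences of opposite sign in the lines.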

How the data were processed

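Biotinylated cRNA was hybridized to Illumina arrays per the labels' protocols. The values used were the authors' deposited table, with 1 linear intensity per gene name and array and nearly equal quantiles on the 4 arrays; the sources used here do not say how they were normalized or how probes were merged. A deposited probe table, whose 8 per-sample columns carry numbers that match no label, served only to count probes: 7 of the genes have 1 probe and EFNA1, EFNA4 and EPHB2 have 2, whose agreement was not tested.

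The background of each array was the mode of its values below 140 (kernel bandwidth 1.5), with the SD below the mode. After limma's normexp signal estimate, 16 was added and log2 taken. Where 1 side of a comparison was at background, the difference is a bound, with the dim side set to the array's lowest signal above background (or to its own measured signal if larger), and it depends on the background estimate. The effects of line and siRNA were fitted with limma 3.58.1 in R 4.3.3 (lmFit, eBayes with a trend, Benjamini-Hochberg). Its estimated prior degrees of freedom were infinite and its median prior SD 0.40. The labels name no separate cultures. Slide and scan effects were not tested.

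The genes and lists were chosen with earlier results of these data known. Named were the 10 genes, the other family genes, FOXF2, and from each list up to 3 genes per direction past limma between the lines and the 2 furthest from 0 with FOXF2 siRNA in each line. All 105 listed names were found, 2 of them (TP63 and RBFOX3) under an older name. Promoters are from RefSeq (GRCh38.p14), with a match for each of the 10 genes. The alternatives tried were no background correction, an offset of 50, other scalings, other limits above background, no filter on dim genes, 1 pair of arrays for the lines, and limma either with no trend or with unmoderated spreads.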

Additional observations from a re-analysis of the deposited data

Results flagged for a closer look

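EFNB2 and EPHB4, a ligand and its receptor, were above background on all 4 arrays and differed with FOXF2 siRNA in opposite directions in the lines. EFNB2 had log2 differences of -0.36 (MCF10A) and 0.06 (MDA-MB-231), a gap of 0.42. EPHB4 had -0.13 and 0.41, a gap of 0.54. The gaps were not tested, each rests on 1 array per group, and the smaller difference of each gene is within the robust SD of genes of like brightness (0.30 for EFNB2 in MDA-MB-231 and 0.29 for EPHB4 in MCF10A).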

How the results depend on the processing

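The 30 log2 differences of the 10 genes (2 siRNA comparisons and the line comparison) were recomputed 230 times in all, and none of those of 1.5-fold or more changed sign. In 219 cases they moved by less than the robust SD of genes of like brightness, and 11 became smaller by more than that, 6 without background correction and 5 with an offset of 50. The 219 include every recomputation with another background limit or with no filter on dim genes, which cannot change these measured differences. They also include the other scalings, which acted on arrays of nearly equal quantiles. The 219 are therefore no measure of robustness. The difference of EPHB3 between the lines, -0.05, was 0.16 on the control siRNA arrays. The count of genes at least 2-fold higher in MDA-MB-231, 2 in the report, was 1 without background correction, 1 with an offset of 50 and 1 on the control siRNA arrays alone, EPHB2 being the one lost. The count 2-fold lower, 3 in the report, was 2 without background correction, with an offset of 50 and on the FOXF2 siRNA arrays alone, and 4 on the control siRNA arrays alone. In MCF10A, 1 gene in place of 2 was 1.5-fold higher with FOXF2 siRNA without background correction or with an offset of 50, EFNA1 being the one kept, and 1 in place of 3 was 1.5-fold lower without background correction and 2 with an offset of 50. A looser background limit (upper 5%) gave 3 higher genes there, as did no filter on dim genes, and a stricter one (upper 0.1%) gave 2 lower. Of the pathway genes, 0 were called higher and 3 lower in MDA-MB-231 without background correction (0 and 3 also at an unadjusted p under 0.05), and 1 was called higher and 4 lower with an offset of 50. With each gene's own spread in limma, 0 pathway genes were called higher and 0 lower, and 0 other family genes; 2, 1 and 1 had an unadjusted p under 0.05 and a difference of 1 or more, and 0 of all 20747 genes were called. For the siRNA effect, 0 pathway genes were called in every limma setting, with 2 at an unadjusted p under 0.05 in the reported fit, 3 without background correction, 1 without a trend and 3 with each gene's own spread. The labels give no replicate numbers, so no replicate block could be fitted; the limma fit with line and siRNA as terms already compares the siRNAs within each line. Signal over background limits EFNA5, EPHA1, EPHB2, EPHB3 and, in MDA-MB-231, EFNB1 and the other family gene EFNB3 most, as their intensities lie near the limit of about 121.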
